A study of Mus musculus with 43 samples.

Results

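The genes described here are 9 genes of classical and nonclassical monocytes: Ly6c2, Tgfbi, Treml4, Ace, Adgre4, Csf1r, Ctss, Adgre1 and Klf4. They were listed by symbol, but with earlier results of these data known. They are 9 of the 56941 gene identifiers in the deposited count table, and each was read in all 43 libraries. Their identifiers there are ENSMUSG00000022584 for Ly6c2, ENSMUSG00000035493 for Tgfbi, ENSMUSG00000051682 for Treml4, ENSMUSG00000020681 for Ace, ENSMUSG00000032915 for Adgre4, ENSMUSG00000024621 for Csf1r, ENSMUSG00000038642 for Ctss, ENSMUSG00000004730 for Adgre1 and ENSMUSG00000003032 for Klf4. In the GENCODE annotation of GRCm38, Adgre1, Adgre4 and Treml4 lie on chromosome 17, and the other 6 genes lie on 6 different chromosomes.

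The RNA came from sorted bone marrow cells of mice given whole marrow cells carrying JAK2V617F, a mutant form of the JAK2 kinase found in myeloproliferative neoplasms, and from mice given no cells. Recipients were wild type, CD45.1 and not conditioned beforehand, and the transplanted cells carried CD45.2, so that an antibody could part host from donor cells. The groups were host CD45.1+ cells of transplanted mice (n = 7), donor CD45.2+ cells of the same 7 mice, and CD45.1+ cells of untransplanted wild-type controls of matched age and sex (n = 8), all taken about 7 months after transplantation of 5 M (1 M = 1000000) cells. Stroma-enriched cells, lacking CD45 and lineage markers that included CD11b and Ly-6G/Ly-6C, were taken from these 7 transplanted mice and 8 controls too. CD45.1+ CD11b+ cells came from other male mice at 52 weeks, 3 transplanted and 3 controls, for which the labels state no cell dose. No mice received normal marrow, so an effect of the mutant cells and an effect of transplantation cannot be told apart. The labels do not say what drives the mutant allele. The donor library of animal N204 is titled donor cells but carries a source label of recipient-derived cells, and it was used as titled.

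Monocytes are made in the marrow from granulocyte and macrophage progenitors under the control of transcription factors such as PU.1, IRF8 and KLF4, and they depend on signals through the CSF1 receptor. In mice the classical subset carries much Ly6C and CCR2 and enters inflamed tissue, where it can become macrophages. The nonclassical subset carries little Ly6C, patrols the vessel wall, arises largely from classical cells, and requires the nuclear receptor NR4A1. JAK2 passes on signals of several haematopoietic cytokine receptors, and a constitutively active form expands myeloid cells.

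Library totals ran from 15.71 to 19.68 M counts in the 22 CD45-sorted libraries, from 41.21 to 143.23 M in the 15 stroma libraries and from 32.48 to 44.85 M in the 6 CD11b libraries. Levels between genes are given as deposited TPM (transcripts per 1 M transcripts, a measure per transcript length), and levels within a comparison as scaled CPM (counts per 1 M counts after TMM scaling). Each comparison was tested with edgeR's quasi-likelihood F-test over all genes that passed a filter on low counts, with sex as a covariate except among CD11b cells, and a gene passed at a Benjamini-Hochberg adjusted p below 0.05. All 9 genes passed the filter in every comparison. Gene expression in 1 stroma library of a transplanted mouse, N032, stood apart, with a median correlation to its own group of 0.887 against 0.954 to 0.973 for the other 6. The control library of N051 and the host library of N269 correlated least with their groups, at 0.974 each. In bulk samples fewer cells of a type and less RNA per cell cannot be told apart. Of 2737 windows of 150 bases in Ly6c2 transcripts, 39 (1.42%) also occurred in those of the related gene Ly6c1. Ly6c1 stood at 0 to 1.34 TPM in CD45 and CD11b sorts but at 112.8 to 740.7 TPM in stroma. The part of such shared reads in the stroma values of Ly6c2 was not tested. Exons of Csf1r overlap Hmgxb3, and exons of Ace overlap Gm11651, each on the opposite strand. Whether the counting used the strand is not given in the sources used here.

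For 7 of the 9 genes a promoter was used from a RefSeq-derived table of GRCm38.p6, each 250 bases before to 50 bases after a start. The 4 shown are those of Ctss and Adgre4, which were higher in host cells, and of Treml4 and Ace, which were not. Ace is given at its upstream start, the one used by somatic cells. Capitals mark matches on either strand to 4 motifs. The PU.1-like ETS motif was searched as AGGAAGT and the C/EBP motif as TTNNGCAA. For RUNX factors the letters searched were TGTGGT. The TATA box was searched as TATAAA. The KLF motif, searched as GGGTGG, and the NR4A motif, searched as AAAGGTCA, were not found in the 4 shown.
Ctss promoter, chr3:95526536-95526835, plus strand: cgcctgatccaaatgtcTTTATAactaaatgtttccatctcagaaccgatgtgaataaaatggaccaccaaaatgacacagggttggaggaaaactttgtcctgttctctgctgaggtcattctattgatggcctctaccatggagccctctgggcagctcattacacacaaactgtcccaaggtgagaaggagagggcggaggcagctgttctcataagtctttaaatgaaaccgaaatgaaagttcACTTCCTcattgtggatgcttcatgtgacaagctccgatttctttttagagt
Adgre4 promoter, chr17:55749734-55750033, plus strand: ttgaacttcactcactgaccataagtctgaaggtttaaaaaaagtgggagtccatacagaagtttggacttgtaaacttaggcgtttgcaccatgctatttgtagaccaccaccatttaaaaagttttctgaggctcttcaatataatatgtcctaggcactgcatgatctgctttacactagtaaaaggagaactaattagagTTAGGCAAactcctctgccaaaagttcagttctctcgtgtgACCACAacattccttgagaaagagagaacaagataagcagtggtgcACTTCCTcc
Treml4 promoter, chr17:48264045-48264344, plus strand: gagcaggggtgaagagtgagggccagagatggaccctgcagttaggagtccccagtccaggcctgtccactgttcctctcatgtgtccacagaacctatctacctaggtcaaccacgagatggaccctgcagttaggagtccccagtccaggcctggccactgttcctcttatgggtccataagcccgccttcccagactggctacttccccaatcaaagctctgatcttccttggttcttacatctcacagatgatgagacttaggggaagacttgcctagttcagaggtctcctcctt
Ace promoter, chr11:105967698-105967997, plus strand: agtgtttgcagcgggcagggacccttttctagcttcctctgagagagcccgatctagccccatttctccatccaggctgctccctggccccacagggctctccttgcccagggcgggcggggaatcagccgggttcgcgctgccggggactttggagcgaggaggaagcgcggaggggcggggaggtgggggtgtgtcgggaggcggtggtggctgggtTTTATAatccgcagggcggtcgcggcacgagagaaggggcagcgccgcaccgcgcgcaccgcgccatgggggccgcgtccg

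AGGAAGT was found at -2 in Ctss and at 42 in Adgre4 (first base counted from the start), both on the reverse strand, and at 2 places in Ly6c2, but in none of the windows of Treml4, Ace, Tgfbi and Klf4. It occurs in 9.35% of all 32851 promoters in the table. Adgre4 also held TTNNGCAA at -46, a motif found in 10.8% of promoters, and TGTGGT on the reverse strand at -5, found in 16.8%. TATAAA was found on the reverse strand at -31 in Ace and at -233 in Ctss, and occurs in 13.6%. No matches overlapped in the 4 windows. A match is a description of letters and not a bound site.

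The order of the groups differed between the classical and the nonclassical genes. Ly6c2, which encodes the Ly6C antigen that defines classical monocytes, had by far the highest levels. Its TPM (lowest, median and highest library) was 2128, 2344 and 2694 in host cells, 2102, 2397 and 2875 in donor cells and 1777, 1950 and 2187 in controls. Tgfbi, which encodes a secreted matrix protein typical of classical monocytes and macrophages, stood at 227.4, 257.3 and 307.3 TPM in host cells, 195.5, 246.2 and 308.1 in donor cells and 127.0, 172.1 and 220.0 in controls. For both genes host and donor libraries covered a like range. All host libraries lay above the controls for Tgfbi in this unit, and the other ranges overlapped with the controls.

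The 3 nonclassical genes were the lowest, with group medians of 2.21 to 13.4 TPM in the CD45-sorted cells. Treml4, a receptor of the TREM family, was at 7.07, 12.2 and 14.8 TPM in host cells, 7.35, 8.64 and 13.2 in donor cells and 11.1, 13.4 and 15.9 in controls. Ace, angiotensin-converting enzyme, was at 3.49, 6.09 and 9.46 TPM in host cells, 1.13, 2.21 and 4.38 in donor cells and 4.13, 7.86 and 10.95 in controls. Adgre4, an adhesion receptor related to F4/80, was at 6.22, 10.4 and 14.1 TPM in host cells, 3.25, 5.50 and 9.91 in donor cells and 4.54, 7.63 and 8.67 in controls. The donor median was the lowest of the 3 groups for each of these genes. The host median lay above the control median for Adgre4 and below it for Treml4 and Ace.

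Among genes of both subsets, Csf1r, the receptor of CSF1 and IL-34, had medians of 118.9 TPM in host cells, 97.1 in donor cells and 81.9 in controls. Ctss, the lysosomal protease cathepsin S that matures antigen-presenting molecules, had medians of 354.5, 245.0 and 230.9 TPM in the same 3 groups. Adgre1, which encodes the macrophage antigen F4/80, had medians of 31.8 TPM in host cells, 22.7 in donor cells and 25.3 in controls. Klf4, a transcription factor that mouse monocytes need to form, had medians of 100.2 TPM in host cells, 74.0 in donor cells and 85.4 in controls.

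The other sorts changed the order. Ordered by mean TPM over the 7 groups, Treml4 was highest in CD11b cells, at 24.5 ± 5.23 TPM in transplanted mice and 25.8 ± 5.92 TPM in controls (SD, n = 3 each), a step beyond the larger SD above the CD45-sorted cells. Ace was highest in stroma, at 12.1 ± 6.58 TPM in transplanted mice (n = 7) and 13.3 ± 4.03 in controls (n = 8), and each step down to host cells was within the larger SD of the neighbours. The step from host cells to donor cells, at 2.34 ± 1.13 TPM, was beyond it. Ly6c2, Csf1r, Tgfbi, Ctss, Treml4 and Adgre1 were lowest in both stroma groups, with a step beyond the larger SD between stroma and the next group. For Klf4 no step between neighbouring groups exceeded the larger SD. Stroma libraries were made with another kit, so levels across sorts are a description.

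**Figure D1:**
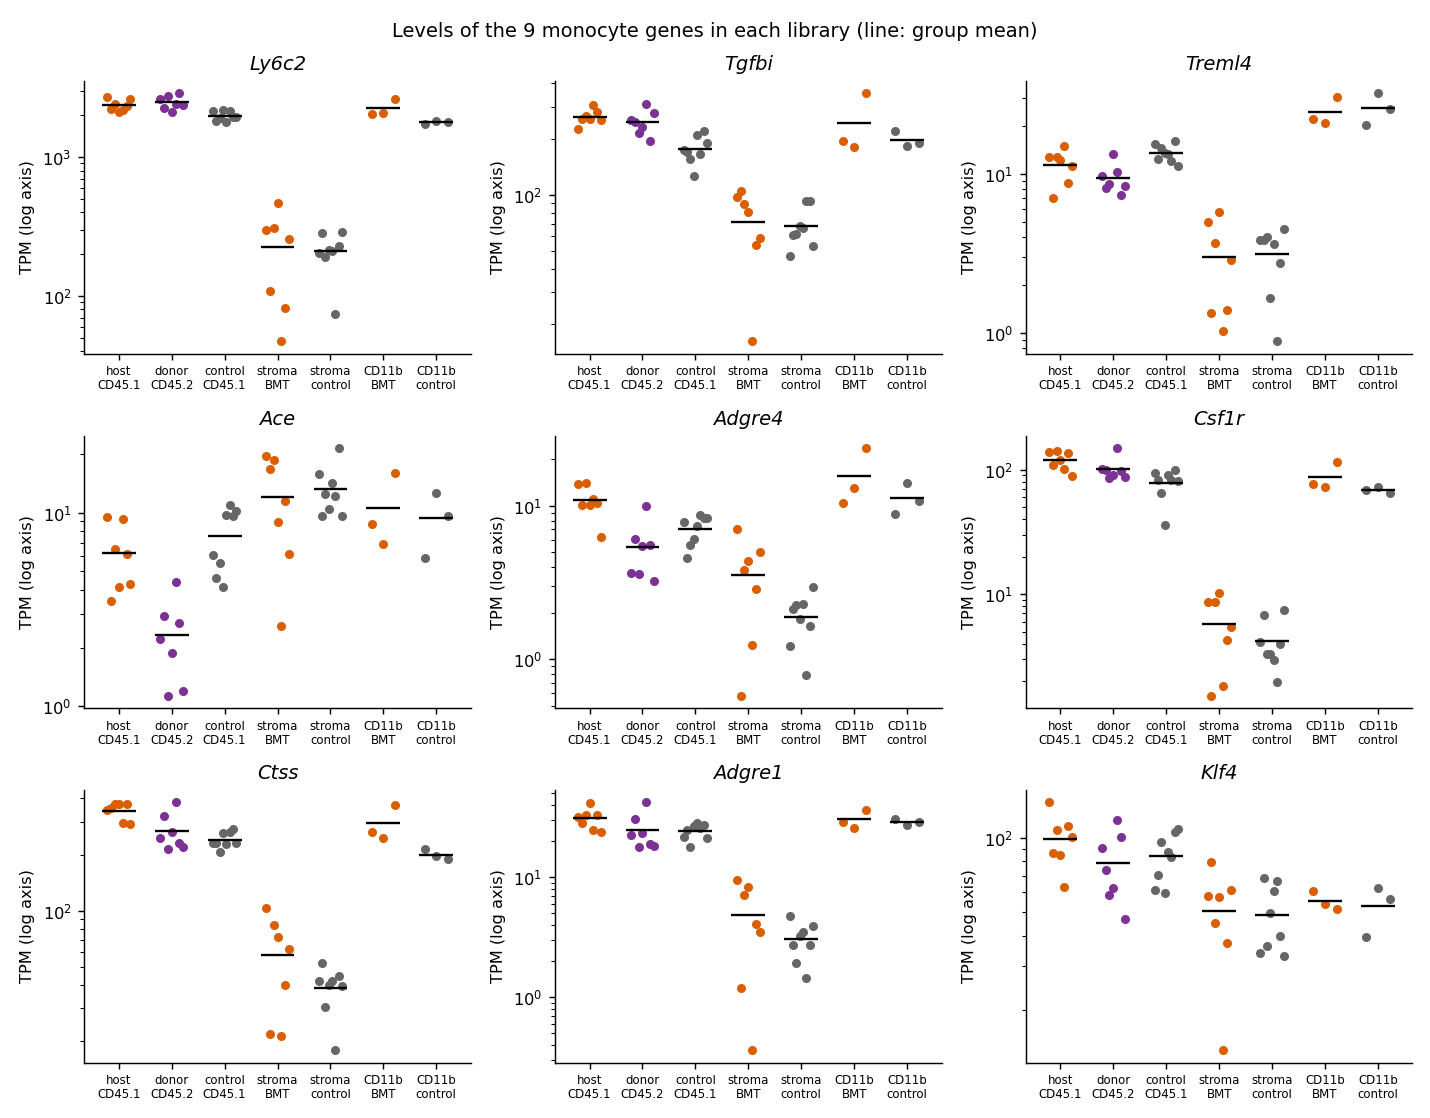
TPM of each gene (log axis, one panel per gene) in every library of the 7 groups, with the group mean as a line. The mean Ace level is lowest in donor cells, and the stroma means are lowest for Ly6c2, Csf1r, Ctss and Adgre1 but not for Ace.

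The comparison of host cells with controls described unmutated cells living beside a JAK2V617F graft. Of the 9 genes 5 rose in host cells and 0 fell, where 16.4% of all 14073 genes passed, 8.61% higher and 7.82% lower. The median log2 fold change was 0.33 over the 9 genes and 0.0078 over all genes. Those that rose were Ctss, Tgfbi, Csf1r, Adgre4 and Adgre1, by 0.33 to 0.56 on the log2 scale. The scaled CPM of the 2 groups overlapped for all 9, while for 2.61% of all genes it did not (1.91% higher, 0.696% lower).

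Ctss was at 260.8, 302.0 and 325.4 scaled CPM (lowest, median and highest) in host cells and 193.5, 206.4 and 270.3 in controls, which differed by log2 0.44 ± 0.07 (SE, edgeR adjusted p = 8.52e-04). Only the highest control, N051, reached into the host range. Tgfbi was at 397.1, 474.0 and 638.1 scaled CPM in host cells and 282.6, 323.1 and 409.0 in controls, which differed by log2 0.55 ± 0.10 (edgeR adjusted p = 0.00174). Here too 1 control, N280, lay above the lowest host library. Csf1r was at 243.2, 293.9 and 301.4 scaled CPM in host cells and 106.2, 192.8 and 258.8 in controls (log2 0.56 ± 0.13, edgeR adjusted p = 0.00762). The highest control, N280, lay above the lowest host library, and the lowest Csf1r value was that of control N051, without which the log2 fold change was 0.46 (edgeR adjusted p = 0.00339).

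Adgre4 was at 15.7, 25.8 and 32.8 scaled CPM in host cells and 12.02, 19.3 and 21.7 in controls (log2 0.55 ± 0.15, edgeR adjusted p = 0.0187). All host libraries except that of N204 lay above every control. Adgre1 was at 43.6, 54.5 and 70.0 scaled CPM in host cells and 33.0, 43.5 and 50.8 in controls (log2 0.33 ± 0.09, edgeR adjusted p = 0.0224), with 2 host libraries inside the control range. A block for the day on which mice were killed was fitted without a sex term, only on days with both groups. It held 5 host and control pairs, and 12.5% of genes passed. In this smaller fit Adgre4 was at log2 0.45 (edgeR adjusted p = 0.107) and Adgre1 at 0.35 (edgeR adjusted p = 0.0530).

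The other 4 genes did not pass. Ly6c2 was at 824.8, 874.1 and 981.5 scaled CPM in host cells and 570.9, 707.7 and 1026 in controls (log2 0.29 ± 0.10, edgeR adjusted p = 0.0633). The highest value was that of control N051, and the other 7 controls lay at or below 822.8, under every host library. Without N051 Ly6c2 passed at log2 0.38 (edgeR adjusted p = 0.00367). It also passed with the day as a block (log2 0.38, edgeR adjusted p = 0.0274), a fit that left out N051 as well. With every library it also passed in DESeq2 (log2 0.285, adjusted p = 0.0391) and in limma on log2(TPM + 1) (0.25, adjusted p = 0.0374) and log2(TPM + 0.1) (0.255, adjusted p = 0.0448). Treml4 averaged 12.5 ± 2.95 scaled CPM in host cells and 15.4 ± 2.46 in controls (log2 -0.30 ± 0.14, edgeR adjusted p = 0.144). Ace averaged 19.0 ± 8.28 scaled CPM in host cells and 24.7 ± 7.96 in controls (log2 -0.39 ± 0.23, edgeR adjusted p = 0.265), with 4 of the 7 host libraries between 11.4 and 15.5. Klf4 averaged 206.5 ± 35.4 scaled CPM in host cells and 180.1 ± 36.5 in controls (log2 0.22 ± 0.12, edgeR adjusted p = 0.232). In units of TPM, Adgre4 over Treml4 had a median ratio of 1.09 in host cells (0.559 to 1.42) and 0.518 in controls (0.368 to 0.753).

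In host cells against controls 8.61% of all genes passed higher and 7.82% lower. Of 17 other classical genes 7 rose and 0 fell, with a median log2 of 0.295. They included Vcan, versican, at log2 2.55 ± 0.16, Fcgr1, the high-affinity IgG receptor, at 1.26 ± 0.16, Ccr2 at 0.81 ± 0.13 and the membrane protein gene Ms4a6c at 0.51. Of the 17, 4 lay below 0. Of 17 other nonclassical genes 16 were tested, 5 rose and 2 fell, with a median of 0.03. The 5 were Cd300e, a myeloid activating receptor, at log2 2.88 ± 0.23, Fcgr4, an activating IgG receptor, at 1.00 ± 0.16, Itgax (CD11c) at 0.53, Nxpe4 at 0.55 and Spn (CD43) at 0.22. The 2 that fell were the scavenger receptor gene Cd36, at -0.87 ± 0.14, and Nr4a1, at -0.38 ± 0.08 (689.7 ± 53.0 scaled CPM in host cells and 902.4 ± 100.0 in controls).

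Among the monocyte fate factors Zeb2 rose by log2 0.21, and Nr4a1 and Egr1 (-0.39) fell. Of 10 tested genes of CSF1R ligands and signalling only Csf2rb, the shared receptor chain of GM-CSF, IL-3 and IL-5, passed, at log2 0.36. Markers of other cells moved with these changes, and their part was not tested. Of 11 tested macrophage markers 8 rose and 0 fell, led by C1qb, C1qa, C1qc and Cd5l at log2 3.68, 4.08, 4.16 and 4.70, and the summed list took 0.0254% to 0.0332% of counts in host libraries and 0.0192% to 0.0234% in controls. Of 8 monocyte progenitor genes 3 rose, Prtn3, Ctsg and Cd34. All 11 B-lineage markers fell, with a median log2 of -1.39. All 12 neutrophil markers lay below 0 and none passed in edgeR, and that list took 2.88% to 7.32% of counts in host libraries and 4.2% to 6.22% in controls.

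**Figure D2:**
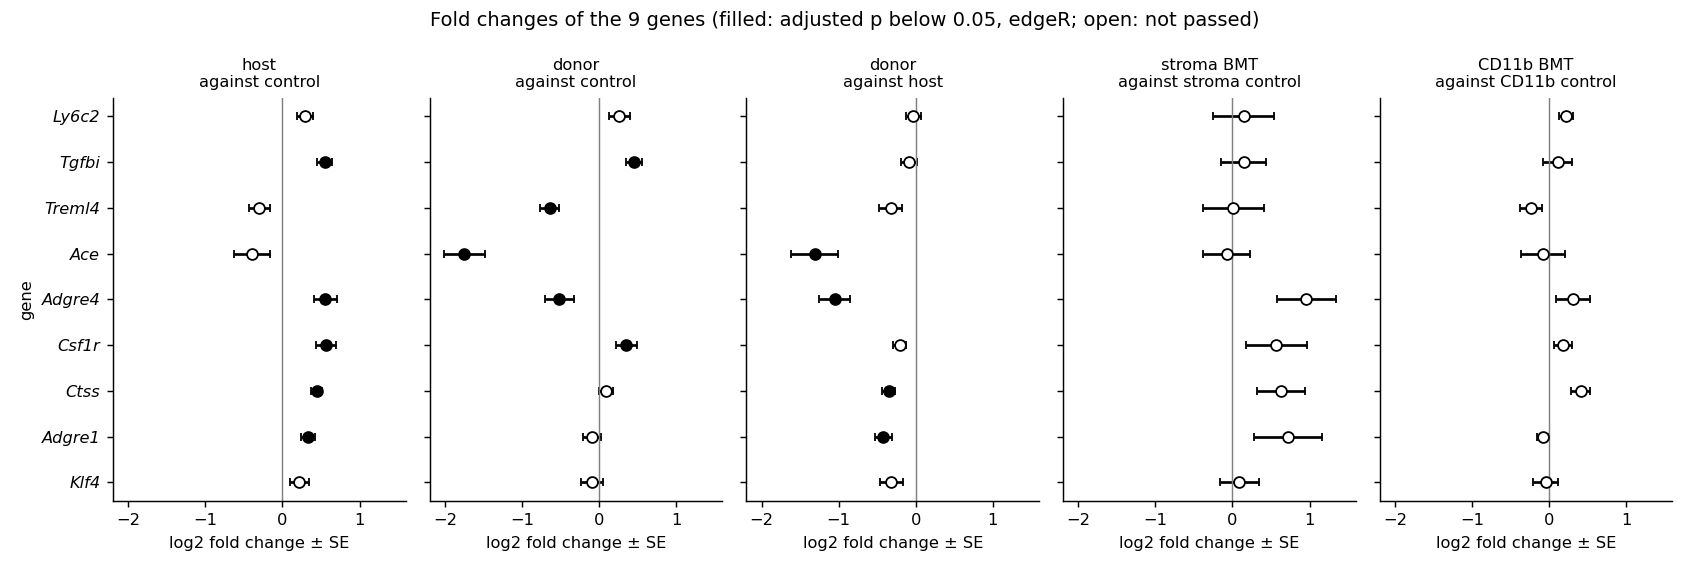
Log2 fold changes (± SE) of the 9 genes in the 5 comparisons, filled where the edgeR adjusted p was below 0.05. Ace, Treml4 and Adgre4 lie left of 0 in donor cells, whereas Adgre4 lies right of 0 in host cells.

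The comparison of donor cells with the same 8 control libraries described the mutant cells themselves, which differ from controls in the CD45 allele as well. Of the 9 genes 2 rose and 3 fell, where 45.7% of all 13906 genes passed, 22.7% higher and 23% lower. The 3 that fell were the nonclassical genes Ace, Treml4 and Adgre4, and the 2 that rose were Tgfbi and Csf1r. Beside that share of all genes, 5 of 9 is a count near the background.

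Ace had the largest difference of the 9 genes, at 3.55, 6.53 and 13.7 scaled CPM in donor cells and 15.4, 24.9 and 34.8 in controls. Ace was the only one of the 9 without overlap between the groups, a pattern of 16.6% of all genes (6.84% higher, 9.77% lower). Donor cells thus held 0.298 of the control level (log2 -1.75 ± 0.26, SE; edgeR adjusted p = 3.95e-05). Treml4 was at 8.45, 9.33 and 13.7 scaled CPM in donor cells and 11.7, 16.2 and 18.1 in controls (log2 -0.64 ± 0.12, edgeR adjusted p = 3.16e-04). Only the donor library of N203 reached the controls. Adgre4 was at 8.65, 13.1 and 21.8 scaled CPM in donor cells and 12, 19.2 and 21.7 in controls (log2 -0.52 ± 0.19, edgeR adjusted p = 0.0305). The highest Adgre4 value of either group was the donor library of N005, 3 others (N279, N203 and N014) lay inside the control range, and the remaining 3 lay below it. Without the donor library of N204, whose labels differ, Adgre4 was at log2 -0.43 (edgeR adjusted p = 0.0865, with a range of 0.00303 to 0.0865 over all fits that left out 1 library). The other calls of this comparison and all those of donor against host cells were the same without it.

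Tgfbi was at 355.7, 457.7 and 557.6 scaled CPM in donor cells and 282.2, 321.5 and 407.6 in controls (log2 0.45 ± 0.10, edgeR adjusted p = 0.00134). Csf1r was at 210.5, 235.4 and 314.3 scaled CPM in donor cells and 106.1, 195.2 and 257.9 in controls (log2 0.35 ± 0.14, edgeR adjusted p = 0.0480), a call at the edge of the threshold. Without control N051 it did not pass (log2 0.24, edgeR adjusted p = 0.0549), and over all fits that left out 1 library the edgeR adjusted p was 0.0199 to 0.0997. Ly6c2 was at 587.4, 919.2 and 1081 scaled CPM in donor cells and 578.5, 713.2 and 1025 in controls (log2 0.26 ± 0.13, edgeR adjusted p = 0.120). It passed with the day as a block (log2 0.36, edgeR adjusted p = 0.0176), where 45.8% of genes passed, and without control N051 (log2 0.36, edgeR adjusted p = 0.0155). The day block held only days with both groups and so left out N051 too. Ctss, Adgre1 and Klf4 were at log2 0.09 ± 0.10, -0.09 ± 0.11 and -0.10 ± 0.15, with edgeR adjusted p of 0.479, 0.525 and 0.617.

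Of all genes 22.7% passed higher and 23% lower in donor cells against controls, and the counts below stand beside those shares. Of 17 other classical genes 6 rose in donor cells and 0 fell, led by Vcan (log2 2.64), Fcgr1 (1.01), Plac8 (0.50) and Ccr2 (0.68). Of 16 tested nonclassical genes 9 fell and 1, Spn, rose, with a median log2 of -0.29. Cd36 was at log2 -1.98 ± 0.18, Cd274, which encodes PD-L1, at -0.88 ± 0.11, Nr4a1 at -0.76 ± 0.09 (531.2 ± 82.8 scaled CPM in donor cells and 902.7 ± 96.2 in controls) and Eno3 at -0.60. Of 14 fate factors 6 fell, among them Irf8 at -0.94 ± 0.10, Egr2 at -0.86 and Klf2 at -0.57, and 1, Cebpa, rose by 0.33. Jak2 itself stood at 173.0 ± 15.0 scaled CPM in donor cells and 211.3 ± 18.1 in controls (log2 -0.29, edgeR adjusted p = 0.00294), a count that does not part the mutant from the normal allele. Ptprc, the gene of CD45, stood at log2 -0.43 (edgeR adjusted p = 0.00102). Of the 8 monocyte progenitor genes 7 rose, led by Prtn3, Ctsg, Ms4a3 and Elane at log2 0.92, 0.75, 0.71 and 0.57. All 11 B-lineage markers, 10 of 11 T and NK markers and 6 of 9 dendritic-cell markers fell, as did 4 of 5 tested plasma cell markers. Of 10 tested macrophage markers 4 rose and 0 fell, and of 10 erythroid markers 6 rose and 2 fell. The part of these other cells in the values above was not tested.

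**Figure D3:**
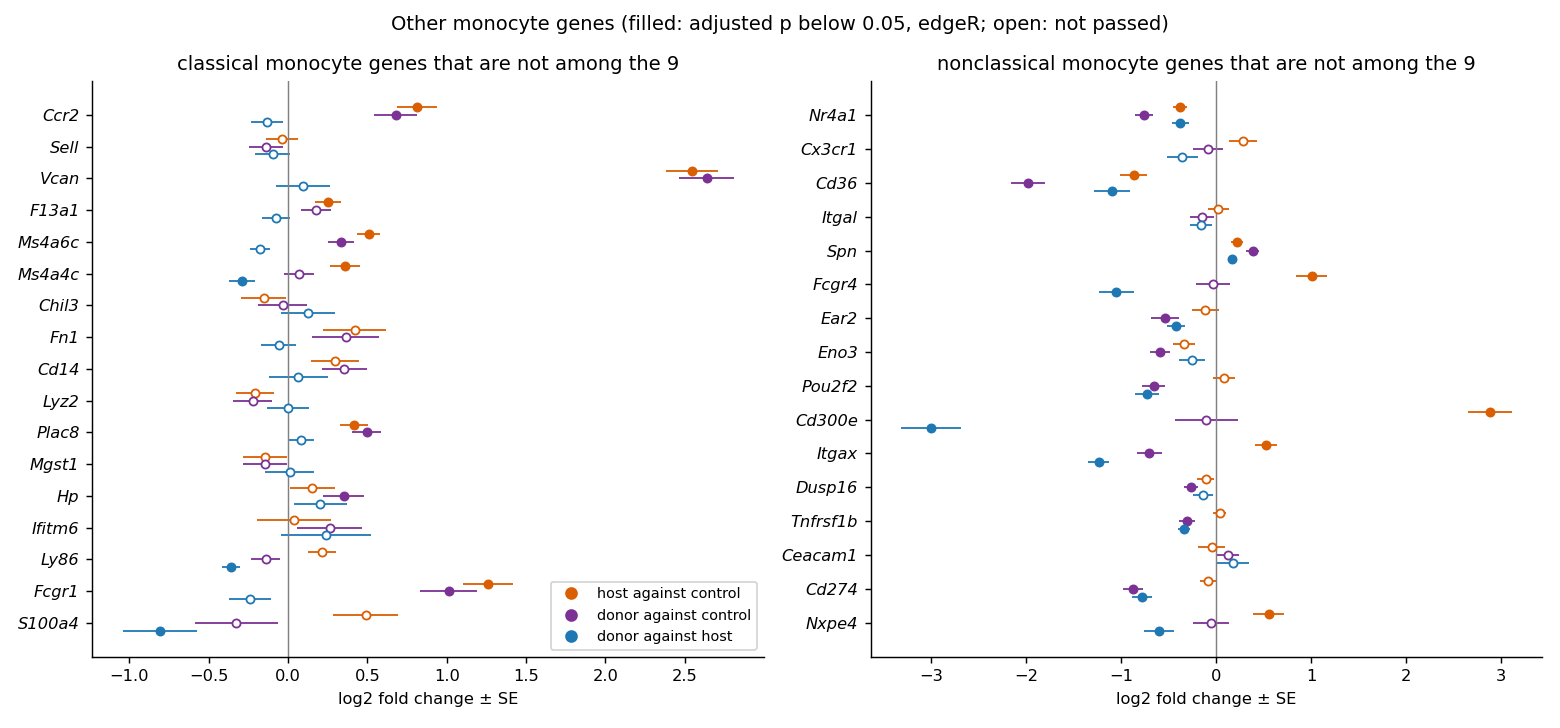
Log2 fold changes (± SE) of the classical and nonclassical genes that are not among the 9, in the 3 comparisons of CD45-sorted cells, filled where the edgeR adjusted p was below 0.05. Vcan is near 2.5 in host and in donor cells against controls, while Cd300e, Fcgr4 and Itgax are higher in host cells than in controls and lower in donor than in host cells.

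Donor and host cells of the same 7 mice were then compared, which tests the difference between the 2 contrasts with controls. All 9 genes had a log2 fold change below 0, with a median of -0.33 (-0.0017 over all genes), and 4 passed, all lower in donor cells. Of all 13662 genes 14.1% passed, 4.17% higher and 9.94% lower. The 4 were Adgre4, Ace, Ctss and Adgre1. Groups overlapped for all 9 genes, while those of 5.02% of all genes did not (0.739% higher, 4.28% lower).

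Adgre4 was at 8.74, 13.25 and 22 scaled CPM in donor cells and 15.8, 26.0 and 33.5 in host cells, which differed by log2 -1.05 ± 0.20 (SE, edgeR adjusted p = 0.00146). It was lower in the donor cells of 7 of 7 mice, by log2 values from -1.92 in N032 to -0.17 in N005. Ace was at 3.60, 6.61 and 13.8 scaled CPM in donor cells and 11.5, 15.8 and 33.1 in the host cells beside them (log2 -1.31 ± 0.30, edgeR adjusted p = 0.00643). It too was lower in 7 of 7 mice, with a range from -2.89 in N269 to -0.20 in N005. Ctss was at 187.8, 219.4 and 292.3 scaled CPM in donor cells and 263.2, 308.3 and 327.9 in their host counterparts (log2 -0.35 ± 0.08, edgeR adjusted p = 0.00715), lower in 7 of 7 mice. Adgre1 was at 30.2, 38.7 and 54.5 scaled CPM in donor cells and 44.0, 55.0 and 70.5 for host (log2 -0.42 ± 0.11, edgeR adjusted p = 0.0139), lower in 6 of 7. These counts of mice are in scaled CPM. In TPM Ace and Adgre4 were still lower in donor cells of every mouse. Ctss was higher in donor cells of N005 (380.7 and 371.7 TPM in host cells), and Adgre1 in those of N005 and N014. For Ace, Adgre4, Ctss, Adgre1, Csf1r, Tgfbi and Klf4 the mouse with the smallest or most positive difference was the same one, N005.

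The other 5 genes did not pass. Csf1r, Treml4 and Klf4 were at log2 -0.21 ± 0.08, -0.33 ± 0.15 and -0.32 ± 0.15, with edgeR adjusted p of 0.0986, 0.169 and 0.189. With the animal as a block, a fit in which 33.7% of all genes passed, all 3 passed at log2 -0.21, -0.32 and -0.33 (edgeR adjusted p = 0.0161, 0.0360 and 9.38e-04). Klf4 was lower in donor cells of 7 of 7 mice, Csf1r in 6 and Treml4 in 5, all in scaled CPM. In TPM donor values moved above host values for Klf4 in N005, Csf1r in N204 and Treml4 in N203. The classical genes Ly6c2 and Tgfbi were at -0.03 ± 0.10 and -0.09 ± 0.10 (edgeR adjusted p = 0.868 and 0.638). In scaled CPM Ly6c2 was lower in donor cells of 4 mice and higher in 3. This split depended on the unit. In TPM donor Ly6c2 was the higher in every mouse but N203 (2102 in donor and 2128 in host cells). The Adgre4 over Treml4 ratio in TPM had a median of 0.417 in donor cells (0.376 to 0.969) and 1.09 in host cells.

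**Figure D4:**
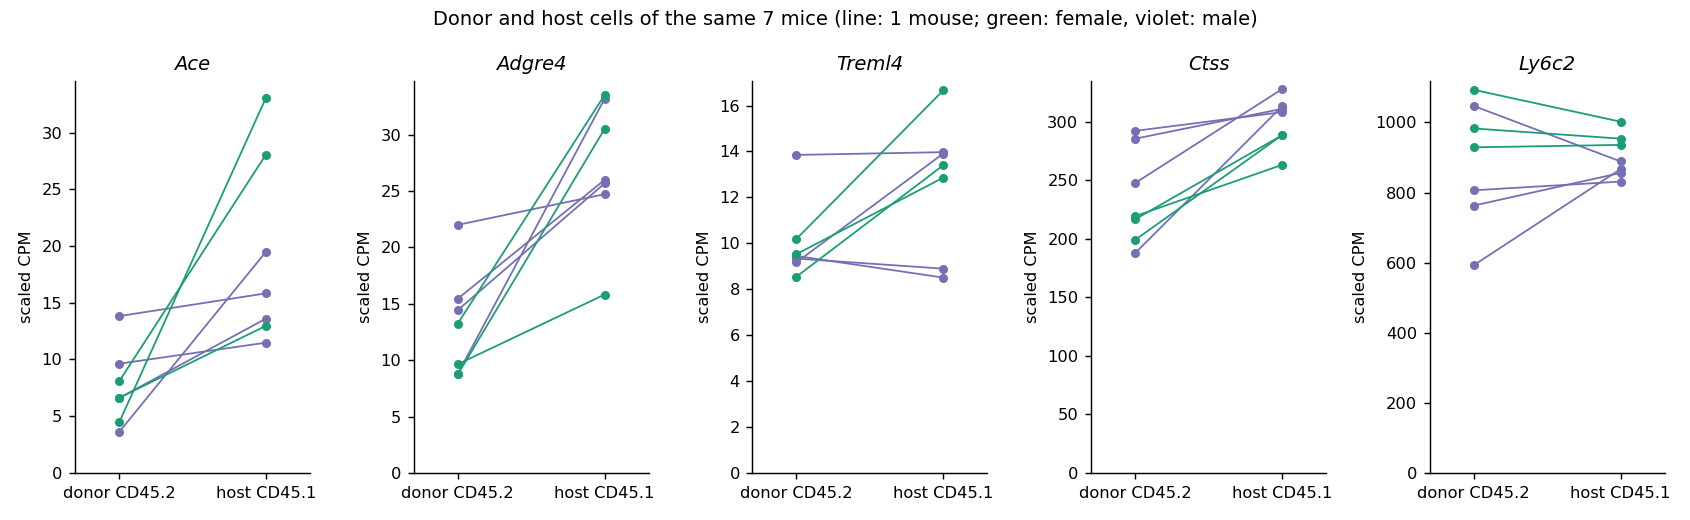
Scaled CPM of 5 genes in donor and host cells, joined by mouse (n = 7, green female, violet male). In this unit Ace, Adgre4 and Ctss are lower in donor cells in every mouse, Treml4 in 5 of 7 and Ly6c2 in 4 of 7. In TPM the counts of mice differ for Ctss, Treml4 and Ly6c2.

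Of the 17 other classical genes 3 fell in donor relative to host cells and 0 rose, namely Ly86 (log2 -0.36), Ms4a4c (-0.29) and S100a4 (-0.81), with a list median of -0.06. Of all genes 9.94% passed lower and 4.17% higher. Of 16 tested nonclassical genes 10 fell and 1, Spn, rose by 0.17, with a median of -0.40. Itgax was at -1.24 ± 0.11, Cd300e at -3.01 ± 0.31, Cd274 at -0.78 ± 0.10 and Pou2f2, a transcription factor that nonclassical monocytes express, at -0.73 ± 0.13. Irf8, Nr4a1 and Irf5 fell among the 14 fate factors, at -0.64, -0.38 and -0.28. Macrophage markers moved alike, with 6 of 11 lower in donor cells and 0 higher, and C1qc at -2.96. Of 11 T and NK markers 10, and all 11 B-lineage markers, were lower as well.

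Final blood chimerism, the donor share measured in blood and labelled without a unit, lay between 0.63 and 5.99 in the 7 transplanted mice, and a slope on its log2 was fitted within host cells with sex as a covariate. Ace and Adgre4 had the steepest slopes of the 9 genes. In the order of rising chimerism, Ace stood at 33.2 (N269), 27.5 (N279), 13.5 (N203), 19.2 (N032), 15.5 (N005), 12.9 (N204) and 11.4 scaled CPM (N014). The 2 mice with the least chimerism were thus inside the control range of 15.4 to 34.4, and the 2 with the most were below it. Between these, N203 was below it too, while N032 and N005 were inside it. The slope was -0.40 ± 0.08 log2 per doubling (SE), which ranked 5 of 14625 genes by p, although no gene passed in edgeR (0% called, 591 at an unadjusted p below 0.05; Ace adjusted p = 0.945). DESeq2 passed 3 genes, 0.0205% of those tested, of which Ace was 1 (log2 -0.40, DESeq2 adjusted p = 0.0202). Leaving out any 1 host library kept the Ace slope between -0.44 and -0.29.

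Adgre4 had a slope of -0.29 ± 0.07, rank 20 by p (edgeR adjusted p = 0.945), which was -0.09 without the host library of N204. Csf1r and Adgre1 were at -0.10 ± 0.04 and -0.12 ± 0.05, Treml4 at -0.17 ± 0.09 (-0.46 without the host library of N204), and Ly6c2 at -0.01 ± 0.04, none of them passing. In host cells 4 of the 9 had an unadjusted p below 0.05. Among donor cells none of the 9 slopes reached an unadjusted p of 0.05 in edgeR, 0% of all genes passed (300 at an unadjusted p below 0.05, and 0 passed with DESeq2), and Ace was at 0.16 ± 0.20 (edgeR adjusted p = 0.999). Sex by transplant interactions in host cells passed for 0 of 9 genes and for 0% of all genes (425 at an unadjusted p below 0.05; 3 with DESeq2, 0 of them among the 9), and the largest, for Ace, was -0.71 ± 0.45 (males minus females).

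**Figure D5:**
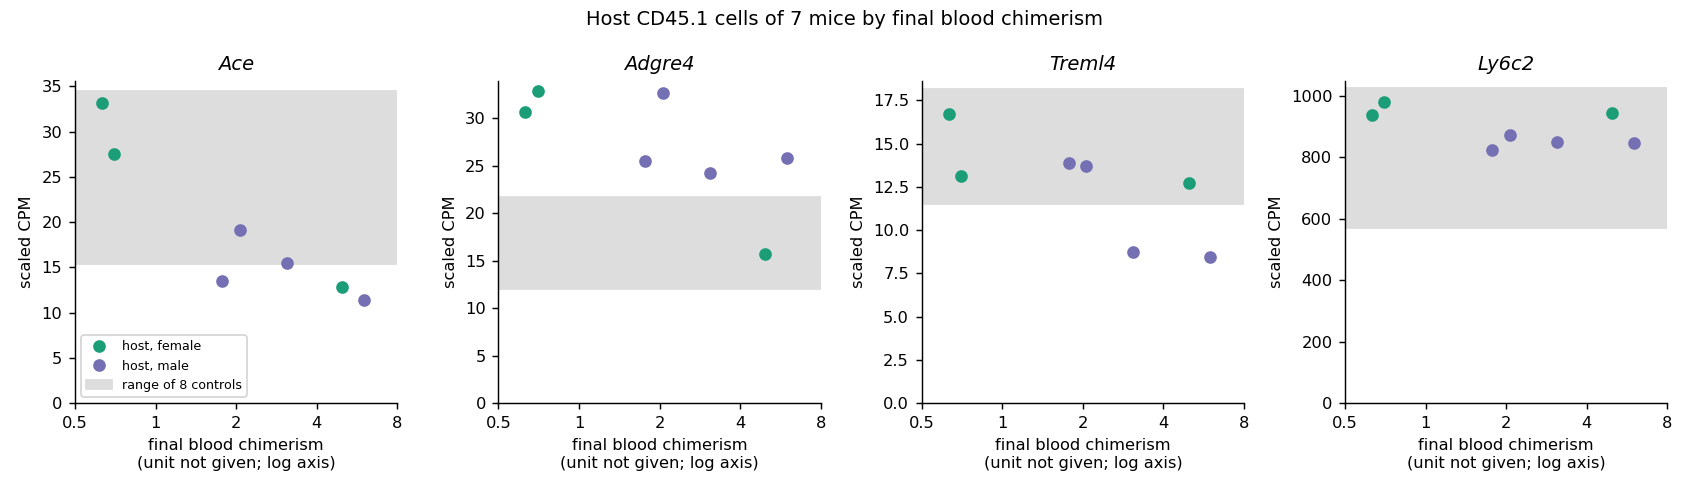
Scaled CPM of 4 genes in host cells of 7 mice by final blood chimerism (log axis, unit not given), with the range of the 8 controls shaded. Ace stands at 33.2 at a chimerism of 0.63 and at 11.4 at 5.99, without falling at every step between. Ly6c2 lies inside the control range in each host library, but only because of control N051. The other controls lie at or below 822.8, under every host library.

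Among CD11b+ cells at 52 weeks 0 of the 9 genes passed in edgeR, as did 0% of all 15257 genes (2506 at an unadjusted p below 0.05). DESeq2 passed 291 genes, 0 of them among the 9, of which 2 had an unadjusted p below 0.05 in edgeR. Ctss stood at 254.3, 267.7 and 329.2 scaled CPM in the 3 transplanted mice and 198.8, 206.9 and 235.8 in the 3 controls (log2 0.41 ± 0.12, edgeR adjusted p = 0.270). Ly6c2 stood at 942.1, 969.7 and 1003 scaled CPM in transplanted mice and 825.2, 836.0 and 839.4 in controls (log2 0.22 ± 0.09, edgeR adjusted p = 0.295). Csf1r stood at 245.0, 246.0 and 317.0 in transplanted mice and 227.5, 241.4 and 243.3 in controls (log2 0.18 ± 0.12, edgeR adjusted p = 0.444). Groups did not overlap for these 3 genes, all higher in transplanted mice, where 24.1% of all genes did not overlap, 12.2% higher and 11.9% lower. Adgre4 was at 31.5, 40.7 and 59.4 scaled CPM in transplanted mice and 30.5, 33.0 and 42.7 in controls (log2 0.31 ± 0.22, edgeR adjusted p = 0.481). Without transplanted mouse N129 the log2 fold change was 0.03 for Adgre4, 0.05 for Csf1r, 0.29 for Ctss and 0.20 for Ly6c2, and without transplanted mouse N187 that of Adgre4 was 0.50. Treml4 and Ace were at log2 -0.24 ± 0.15 and -0.08 ± 0.29. For 7 of the 9 genes, all but Adgre1 and Klf4, the highest of the 3 transplanted mice was N129. Of the 17 classical, 16 tested nonclassical and 13 tested macrophage genes 0 passed in edgeR, as for all genes, with Cd300e at log2 1.98 (edgeR adjusted p = 0.270) and C1qb at 2.90 (edgeR adjusted p = 0.270). All 12 neutrophil markers lay below 0 in this comparison, with none passing, and the list took 9.2% to 13.4% of counts in transplanted mice and 13.5% to 15.1% in controls; its part in the values above was not tested. All 11 T and NK markers lay above 0, with a median log2 of 1.45.

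In stroma-enriched cells 0 of the 9 genes passed, where 1.49% of all 26191 genes did, 0.466% higher and 1.03% lower. Groups overlapped for all 9, while those of 0.779% of all genes did not. In DESeq2 0 of the 9 passed as well, and 1 of the 9, Adgre4, had an unadjusted p below 0.05 in edgeR. Adgre4 was at 1.89, 12.3 and 17.9 scaled CPM (lowest, median and highest) in transplanted mice and 2.56, 5.66 and 8.25 in controls (log2 0.96 ± 0.38, edgeR adjusted p = 0.440). In 5 of the 7 transplanted mice it lay above every control. Without the stroma library of N032 the log2 fold change was 1.06 (edgeR adjusted p = 0.190). Adgre1, Ctss and Csf1r were at log2 0.72 ± 0.44, 0.63 ± 0.32 and 0.57 ± 0.40, and at 0.88, 0.745 and 0.69 without N032, with none passing either way. Ly6c2, Tgfbi, Klf4, Treml4 and Ace lay between -0.08 and 0.15, and between 0.07 and 0.305 without N032, where Ace turned from -0.08 to 0.07. Of 16 tested nonclassical genes 2 rose, Cd300e (log2 3.16 ± 0.43, edgeR adjusted p = 0.00124) and Fcgr4 (2.20 ± 0.39, edgeR adjusted p = 0.00538). Of 17 classical genes 0 passed in edgeR, with all 17 above 0. Markers of other cells moved in the same comparison, and their part was not tested. Of 14 macrophage markers 3 rose, C1qa, C1qb and C1qc, and 0 fell. Of 10 erythroid markers 4 rose and 0 fell, and that list took a median of 0.933% of counts in transplanted mice and 0.451% in controls. All 12 neutrophil markers lay above 0 (median log2 0.28), with none passing in edgeR.

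The stroma gate removed cells with CD45, CD11b or Ly-6G/Ly-6C, yet transcripts of Ptprc were read in these libraries at 196.0 ± 114.3 scaled CPM in transplanted mice (n = 7) and 162.9 ± 61.2 in controls (n = 8). Ly6c2, Csf1r, Ctss, Adgre1, Treml4 and Adgre4 followed Ptprc over the 15 stroma libraries, with Pearson's r of log2 values of 0.928, 0.932, 0.896, 0.917, 0.887 and 0.758. Spearman's rho was 0.939, 0.925, 0.832, 0.839, 0.875 and 0.761. The permutation p of these r, adjusted over the 18 relations computed, ran from 4.5e-05, the smallest that 100000 permutations and this adjustment gave, to 0.00303, and that of these rho from 9e-05 to 0.00453. Without the 2 libraries farthest from the median of Ptprc r was 0.781 to 0.930. It was 0.825 to 0.980 within the 7 libraries of transplanted mice and 0.793 to 0.945 within the 8 of controls.

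Tgfbi, Ace and Klf4 were not related to Ptprc at an adjusted permutation p below 0.05 over the same libraries, with r of 0.436, 0.419 and 0.309, rho of 0.200, 0.0786 and 0.0821, and adjusted permutation p of r of 0.241, 0.242 and 0.429. Without the 2 farthest libraries their r was 0.114, -0.0734 and -0.0920. Within the 7 transplanted mice alone their r was 0.682, 0.564 and 0.572, and within the 8 controls alone -0.400, -0.0213 and -0.385. None of the 9 genes was related to Cdh5, the endothelial cadherin gene, at an adjusted permutation p below 0.05 (r from 0.0096 to 0.470). Along blood chimerism 0 of the 9 stroma slopes passed in edgeR, with 0% of all genes called (1227 at an unadjusted p below 0.05). Of the 9, 3 had an unadjusted p below 0.05, and 0 of the 16 genes that passed with DESeq2 were among them. Ly6c2, Csf1r and Treml4 had slopes of 0.72 ± 0.27, 0.67 ± 0.26 and 0.60 ± 0.23 log2 per doubling, and that of Ptprc was 0.61 ± 0.26. Without N032 the first 3 were 0.605, 0.58 and 0.52, and without N204 they were 1.51, 1.06 and 0.95, with none passing.

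Genes most like each of the 9 were sought over the 15 host and control libraries, by the Pearson correlation of log2 CPM after the mean of each group and sex was subtracted, among 9752 genes. These values are a description, and the libraries share depth and sort. The most alike gene was Rreb1 for Csf1r (r = 0.986), Ly86 for Ctss (0.942), Mpg for Klf4 (0.933), Oma1 for Tgfbi (0.904), Itga4 for Ace (0.903), Acbd5 for Adgre1 (0.895), Trim12a for Treml4 (0.893) and Serpina3g for Ly6c2 (0.872). Second came Tyk2 for Csf1r (0.972), Selenop for Ctss (0.930), Sgf29 for Klf4 (0.916), Vcan for Tgfbi (0.899), Tnfsf13b for Treml4 (0.889), Smpd1 for Ace (0.859), Usp8 for Adgre4 (0.840) and Zfp738 for Ly6c2 (0.830). Among the 9 themselves Ace and Adgre4 were the most alike pair (0.816), and Treml4 was not near either of them (0.016 with Ace and 0.161 with Adgre4). Ly6c2 stood at -0.618 with Tgfbi, -0.595 with Csf1r and 0.638 with Ctss. Control N051 had the highest Ly6c2 (1026 scaled CPM) and the lowest Csf1r (106.2) of the 15 libraries. Without it, a comparison chosen after seeing the data, Ly6c2 stood at -0.578 with Tgfbi, -0.0092 with Csf1r and 0.241 with Ctss, and Ace and Adgre4 at 0.912. The likeness of the other genes named above lay between 0.747, for Serpina3g, and 0.966, for Rreb1, without N051. Among the 9, leaving out N051 took Csf1r from -0.240 to 0.779 with Ctss and from 0.331 to 0.779 with Adgre1. With Adgre4 Csf1r went from 0.345 to 0.711, and with Tgfbi it fell from 0.535 to 0.466.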

How the data were processed

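Poly-A RNA libraries of CD45-sorted and CD11b-sorted marrow cells and low-input libraries of stroma-enriched cells were sequenced. The values are the authors' deposited counts per gene, whole numbers with no normalization, and the deposited TPM of the same libraries. Per the submitters' processing notes STAR 2.7.3a, the GRCm39 build, featureCounts of Subread 1.6.2 and, for CD11b cells, RSEM 1.3.3 were used. The annotation, the strand setting of counting and how the stroma runs were merged are not given in the sources used here. All per-sample columns of these tables were used, and another deposited count table was not used here.

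Counts were filtered (filterByExpr), scaled by TMM and tested with edgeR 4.0.16 (R 4.3.3) by the quasi-likelihood F-test, adjusted by Benjamini-Hochberg over all genes tested, with a threshold of 0.05. Sex was a covariate except in CD11b cells, which were all from males. The alternatives were DESeq2 1.42.0, upper-quartile scaling, 2 other filters on low counts, limma 3.58.1 on log2(TPM + 1) and log2(TPM + 0.1), each sex alone, no sex term, a replicate block and leaving out each library. A block replaced the sex term, and a day block used only the days with both groups. Same-mouse donor and host libraries deviated together across genes (correlations of 0.262 to 0.74, 7 pairs), as did libraries of the same day of euthanasia for host and control (0.325 to 0.436), donor and control (0.253 to 0.418) and stroma (0.195 to 0.672), but not for CD11b cells (-0.0712 to 0.0742). Each same-day pair was also of the same sex, and sex was not subtracted. Day and sex cannot be told apart in these correlations. The fits were tested on simulated data first, with changes put into genes that were not low in count. Of simulated log2 changes of 1, 55% were recovered in stroma and 72% in CD11b cells. In the comparisons of CD45-sorted cells 96% to 99% were recovered, so smaller changes are more easily missed in stroma and CD11b cells.

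Within each group the labels call the libraries separate mice. Outside the CD11b cells, each transplanted mouse gave a host, a donor and a stroma library. Each control there gave a CD45.1 and a stroma library. Host and donor comparisons share the 8 control libraries. The members and gene lists were chosen with earlier results of these data known. Besides the 9 genes, Jak2 and Ptprc, the genes named are up to 4 of each list with the smallest p, those a count of 5 or fewer is about, and the 2 most alike genes of each member. A few results under this rule are not reported here. "Beyond the larger SD" means that neighbouring group means differed by more than the larger of their SDs. Promoters and motif matches came from a RefSeq-derived table of GRCm38.p6.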

Additional observations from a re-analysis of the deposited data

Results flagged for a closer look

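Among 45 combinations of a gene and a group of libraries, with CD11b groups left out, 3 had a single library far from the rest. Chance flags about 1 in 20 such combinations, which share libraries and so are not independent. Tgfbi in host cells stood at 638.1 scaled CPM in N269, and the nearest other host library at 488.9. Without N269 the host log2 fold change of Tgfbi was 0.46 (edgeR adjusted p = 0.00291). Treml4 in donor cells stood at 13.72 scaled CPM in N203, and the nearest other donor library at 10.08. Ace in stroma of controls stood at 69.43 scaled CPM in N002, and the nearest other control at 46.56.

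For 4 genes the effect in donor cells differed from that in host cells, tested directly as donor against host with edgeR over 7 libraries each. This fit had no term for the animal, although both sorts came from the same 7 mice. With the animal as a block Csf1r, Treml4 and Klf4 passed as well. The log2 difference was -0.353 for Ctss (adjusted p = 0.00715), -1.31 for Ace (adjusted p = 0.00643), -1.05 for Adgre4 (adjusted p = 0.00146) and -0.422 for Adgre1 (adjusted p = 0.0139). In scaled CPM donor values were lower in 7 of 7 mice for Ctss, Ace and Adgre4 and in 6 of 7 for Adgre1. For Ctss and Adgre1 fewer mice had lower donor values in TPM.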

How the results depend on the processing

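The count of the 9 genes passing in host against control (5) was 6 with DESeq2, 3 with limma on log2(TPM + 1), 3 on log2(TPM + 0.1), 2 in males alone and 0 in females alone (edgeR, fewer libraries), and 4 with the day as a replicate block (fewer libraries as well). In DESeq2 and both limma fits Ly6c2 newly passed. In limma on log2(TPM + 1) Csf1r, Adgre4 and Adgre1 no longer did, at 0.631, 0.538 and 0.315 (adjusted p = 0.0543, 0.0592 and 0.0571). The count ranged from 4 to 6 when each library was left out. In donor against control (5) it was 3 in males alone, 6 with the replicate block, and 3 to 5 when each library was left out, with 3 without donor N269, control N002 or control N283. In donor against host (4) it was 0 in males alone and 7 with the animal as a replicate block. In the host slope (0) it was 1 with DESeq2. The replicate block gave 0 in stroma and 0 in CD11b cells, as without it. These log2 values changed sign. In donor against control, males alone gave 0.000611 for Adgre1 and 0.00943 for Klf4, females alone -0.00541 for Ctss, and leaving out a library -0.192 to 0.00905 for Klf4. In donor against host, Ly6c2 was 0.0675 on log2(TPM + 1), 0.0676 on log2(TPM + 0.1) and 0.0572 in females, and leaving out a library gave -0.0973 to 0.0456 for Ly6c2 and -0.139 to 0.00505 for Tgfbi. In stroma, Treml4 was -0.0293 with no filter. On log2(TPM + 1) Ly6c2, Tgfbi and Treml4 were -0.177, -0.0508 and -0.123, and on log2(TPM + 0.1) -0.179, -0.0559 and -0.186, with Klf4 at -0.00398. In males they were -0.155, -0.0502 and -0.305, with Klf4 at -0.177, and in females Ace was 0.0615. Leaving out a stroma library gave -0.123 to 0.305 for Ly6c2, -0.274 to 0.158 for Treml4, -0.275 to 0.0717 for Ace and -0.00526 to 0.226 for Klf4. In CD11b cells Ace, Adgre1 and Klf4 were 0.133, 0.0551 and 0.0855 on log2(TPM + 1) and 0.145, 0.0564 and 0.0874 on log2(TPM + 0.1), and leaving out a library gave -0.404 to 0.159 for Ace, -0.19 to 0.0734 for Klf4 and -0.129 to 0.227 for Tgfbi. In the host slope Ly6c2 was 0.0304 on log2(TPM + 1) and 0.0305 on log2(TPM + 0.1), and leaving out a library gave -0.0149 to 0.00463 for Ly6c2, -0.104 to 0.0677 for Tgfbi and -0.0492 to 0.13 for Klf4. In the stroma slope Klf4 was -0.00808 with upper-quartile scaling, and leaving out a library gave -0.0546 to 0.76 for Ace and -0.0388 to 0.493 for Klf4. The cause of these shifts was not tested. Of the other values of single genes, apart from leaving out libraries, 457 kept their direction and side of the threshold, 33 no longer passed and 13 newly passed.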
